A study of Mus musculus with 14 samples.

Results

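The retinoic acid receptors Rara, Rarb and Rarg, the retinoid X receptors Rxra, Rxrb and Rxrg, and the retinoic acid binding protein Crabp1 were followed in striatum. They were chosen by gene symbol, as every probe set that the platform's probe table gives to one of these names. All 7 genes were on the array, with 9 of the 22626 probe sets tested: Rarg and Rxra had 2 probe sets each and the other genes had 1. The rule set Rarb and Rxrg, the receptors enriched in striatum, beside the others. Striatum was taken at 6 weeks of age from R6/2 and wild-type mice, with CBA and C57BL/6 in their background. R6/2 mice model Huntington disease through a transgene with the first exon of human HTT and a long CAG repeat, expressed widely under the human promoter. Mice of both genotypes had been given normal saline 30 to 60 minutes before they were killed and were the control arms of drug studies. By the start of their titles the arrays formed an M.C cohort, with 4 R6/2 and 4 wild-type arrays (replicates 1 to 4 of each genotype), and a Mith cohort, with 3 R6/2 and 3 wild-type arrays (replicates 5 to 7). Whether every array stands for 1 mouse is not stated, so p-values cover array-to-array spread, which may be technical, and precision is limited by how few arrays there are.

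Retinoic acid is made from vitamin A and acts on gene transcription through nuclear receptors. A retinoic acid receptor (RAR) binds DNA as a heterodimer with a retinoid X receptor (RXR), usually at repeated hexamer half-sites. RXRs also pair with thyroid hormone, vitamin D, oxysterol and Nr4a receptors, while Crabp1 holds retinoic acid in the cytoplasm. In adult striatum Rarb and Rxrg are the characteristic receptors of projection neurons, and mice that lack them have altered dopamine signalling and movement.

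The probe set signals are log2 values after centring of the arrays to 1 shared median. A change is the log2 difference of R6/2 from wild-type in limma with cohort as a term, ± its SE unless an SD is named. A probe set was called where its p, adjusted by Benjamini-Hochberg across all 22626, was under 0.05. Penk, the enkephalin precursor and a striatal marker, had a mean of 10.996 ± 0.178 in R6/2 and 11.885 ± 0.30 in wild-type (SD, n = 7 each). Thalamic and choroid plexus markers, given below, varied between arrays, and how much bordering tissue each array held was not tested. Array medians before centring ran from 7.07 to 7.17. R6/2 replicate 4 correlated least with its own cohort, with a mean Spearman's rho of 0.981, where the highest of any array was 0.992. A measure of RNA quality, the Actb control's 3′ minus 5′ signal, was 0.608 ± 0.181 in R6/2 and 0.373 ± 0.143 in wild-type (SD, n = 7 each).

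Rarb was lower in R6/2 striatum and Rxrg had a similar estimate that missed the threshold, while the estimates of the other 4 receptors and Crabp1 lay close to 0. Rarb was at 71.0% of the wild-type signal and Rxrg at 73.4%. The remaining 7 probe sets lay between 92.3% and 104%. In all, 1 of 9 probe sets was called, and it was lower, where 2.55% of all probe sets were called and 2.19% were called lower. On none of the 9 did all R6/2 arrays of both cohorts lie below all wild-type arrays, as 0.389% of all probe sets did. The median change over the 9 was -0.02, and over all probe sets it was 0.01.

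Promoter sequence is shown for Rarb and Rxrg, whose signals moved together, because the Rarb promoter is known for a retinoic acid response element through which retinoic acid raises Rarb transcription. The windows are from RefSeq, build GRCm38.p6, and cover 250 bases before and 50 bases after an annotated gene start, printed in the direction of transcription. Capitals mark the paired repeat of GTTCAC in Rarb and the half-site AGGTCA in Rxrg.
Rarb, chr14:16575427-16575726, minus strand: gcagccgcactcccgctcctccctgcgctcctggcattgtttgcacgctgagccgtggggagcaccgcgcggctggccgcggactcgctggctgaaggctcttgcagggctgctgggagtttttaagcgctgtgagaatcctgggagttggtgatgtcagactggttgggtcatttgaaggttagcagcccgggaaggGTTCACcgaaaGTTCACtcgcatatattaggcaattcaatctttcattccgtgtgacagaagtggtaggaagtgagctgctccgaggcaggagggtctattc
Rxrg, first start, chr1:167598112-167598411, plus strand: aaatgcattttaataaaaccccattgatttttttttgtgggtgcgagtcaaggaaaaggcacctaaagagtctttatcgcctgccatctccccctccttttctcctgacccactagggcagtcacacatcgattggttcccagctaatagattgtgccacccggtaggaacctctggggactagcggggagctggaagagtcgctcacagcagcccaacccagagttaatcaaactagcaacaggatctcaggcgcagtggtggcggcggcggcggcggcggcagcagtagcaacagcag
Rxrg, second start, chr1:167618015-167618314, plus strand: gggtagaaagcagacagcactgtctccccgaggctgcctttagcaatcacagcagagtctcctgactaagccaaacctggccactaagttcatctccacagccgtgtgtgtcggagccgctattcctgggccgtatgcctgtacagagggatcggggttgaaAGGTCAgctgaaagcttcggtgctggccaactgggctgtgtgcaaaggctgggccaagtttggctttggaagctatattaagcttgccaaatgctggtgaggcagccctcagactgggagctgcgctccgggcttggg
The window of Rarb held GTTCACNNNNNGTTCAC from base -52 to base -36 before the gene start. Only 2 of 32851 windows in the table, 0.00609%, held this motif on either strand. It was in none of the other 13 windows of the 7 genes. The RXR type repeat AGGTCANAGGTCA (in 0.0396% of windows) and the 5-spaced AGGTCANNNNNAGGTCA (in 0.00913%) matched none of the 14 windows. The single half-site AGGTCA, present in 16.3% of windows on either strand, was found in 1 window each of Rara, Rarg, Rxrg and Rxra. A match describes the letters of the window only.

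**Figure D1:**
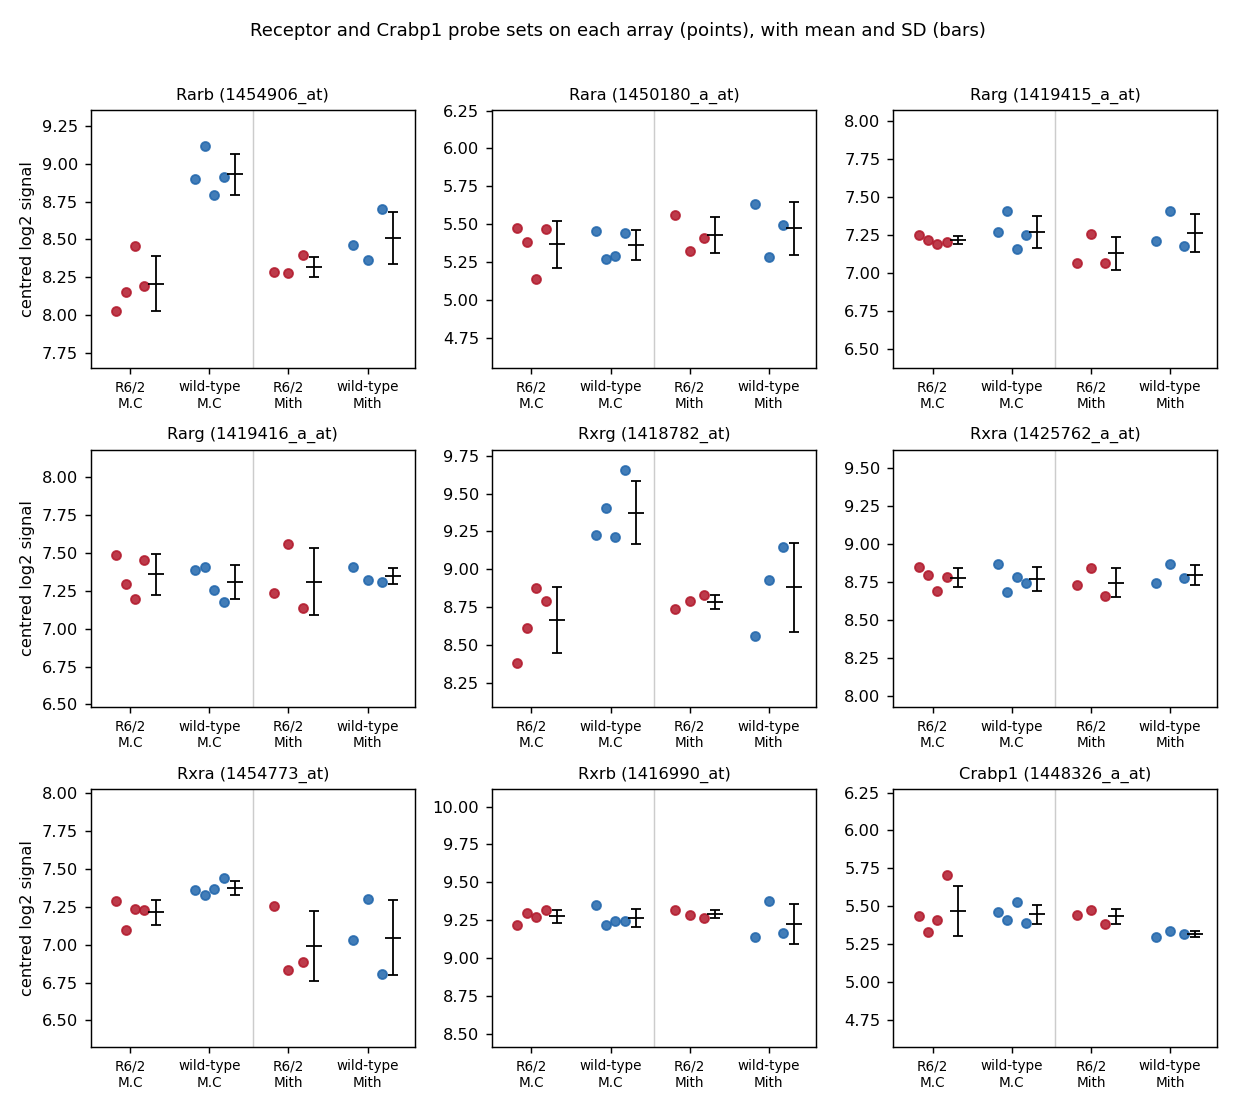
Centred log2 signal (y axis, equal spans) of the 9 probe sets on each array. R6/2 arrays are red and wild-type arrays blue, M.C left and Mith right in each panel, and the bars beside the points are mean and SD. Rarb and Rxrg were lower on all 4 R6/2 arrays of M.C than on any wild-type array of that cohort, and overlapped in Mith.

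Rarb encodes the RAR that striatal projection neurons carry. In M.C its log2 signal was 8.03, 8.16, 8.46 and 8.19 in R6/2 replicates 1 to 4, against 8.90, 9.12, 8.79 and 8.92 in wild-type replicates 1 to 4. In Mith it was 8.28, 8.28 and 8.40 in R6/2 replicates 5 to 7, against 8.46, 8.36 and 8.70 in wild-type replicates 5 to 7. Every R6/2 array of M.C thus lay below every wild-type array of M.C, while in Mith wild-type replicate 6 lay below R6/2 replicate 7. Over both cohorts Rarb fell by 0.49 ± 0.10 (95% interval -0.70 to -0.29, limma adjusted p = 0.0118). The call held in all 14 fits with 1 array left out, with adjusted p between 0.00570 and 0.0322. It was lost once the Actb measure entered the fit, where Rarb was at -0.40 ± 0.12 (adjusted p = 0.222), and without a cohort term (adjusted p = 0.0537).

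By group, Rarb averaged 8.21 ± 0.18 in R6/2 and 8.93 ± 0.13 in wild-type of M.C (SD, n = 4 each). It averaged 8.32 ± 0.07 in R6/2 and 8.51 ± 0.17 in wild-type of Mith (SD, n = 3 each). From high to low the order was wild-type M.C, wild-type Mith, R6/2 Mith and R6/2 M.C. The arrays of wild-type M.C overlapped no other group, and those of each later neighbour in this order overlapped. Within M.C Rarb fell by 0.72 ± 0.10 (limma adjusted p = 0.00429), and within Mith it was at -0.19 ± 0.10 (limma adjusted p = 0.635).

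Rxrg encodes the RXR that partners RARs in the same neurons. In M.C its log2 signal was 8.38, 8.61, 8.87 and 8.79 in R6/2 replicates 1 to 4, against 9.23, 9.40, 9.21 and 9.66 in wild-type replicates 1 to 4. In Mith it was 8.74, 8.79 and 8.83 in R6/2 replicates 5 to 7, against 8.56, 8.93 and 9.14 in wild-type replicates 5 to 7. As with Rarb, M.C separated by genotype without overlap, and Mith did not: wild-type replicate 5 lay below all 3 R6/2 arrays of its cohort. Over both cohorts Rxrg was at -0.45 ± 0.12 (95% interval -0.70 to -0.19), with an unadjusted p of 0.00172 and a limma adjusted p of 0.0588. Without wild-type replicate 5 it fell by 0.54 (limma adjusted p = 0.00752). In the other 13 fits with 1 array left out it was not called, with adjusted p up to 0.125.

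Within M.C Rxrg fell by 0.71 ± 0.12 (limma adjusted p = 0.0120), to 61.1% of wild-type. Within Mith it was at -0.09 ± 0.13 (limma adjusted p = 0.908). Its group means were 8.66 ± 0.22 in R6/2 and 9.37 ± 0.21 in wild-type of M.C (SD, n = 4 each), against 8.79 ± 0.05 in R6/2 and 8.88 ± 0.30 in wild-type of Mith (SD, n = 3 each). The order was the same as for Rarb, and again only wild-type M.C stood clear of the other groups. With the Actb difference as a covariate Rxrg was at -0.28 ± 0.14 (adjusted p = 0.485).

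**Figure D2:**
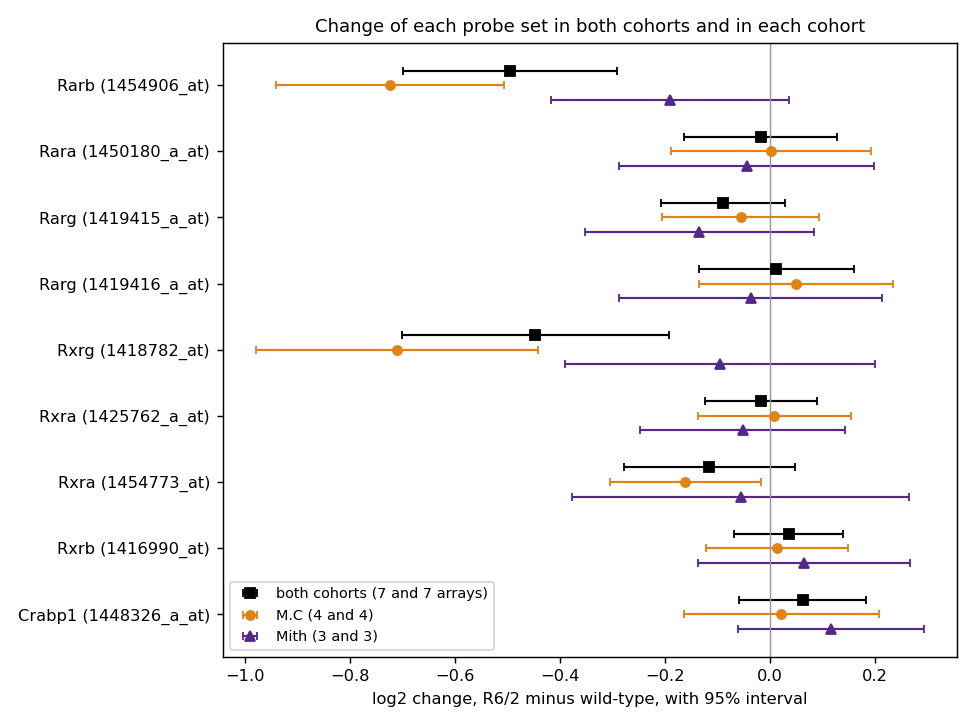
Log2 change of each probe set, R6/2 minus wild-type, with its 95% interval from limma (x axis), for both cohorts, M.C and Mith. The intervals of Rarb and Rxrg lie below 0 over both cohorts and in M.C, and include 0 in Mith.

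Rara and Rarg are the RARs that many tissues express. Rara ran from 5.14 to 5.56 with a median of 5.41 on the 7 R6/2 arrays, against 5.27 to 5.64 with a median of 5.44 on the 7 wild-type arrays. The groups overlapped in both cohorts, and the change was -0.02 ± 0.07 (95% interval -0.16 to 0.13, limma adjusted p = 0.939). Its probe set was dim, with 15.9% of probe sets dimmer, and no detection calls were used here, so this may be a signal near background. The brighter Rarg probe set, 1419416_a_at, ran from 7.13 to 7.56 in R6/2, against 7.18 to 7.41 in wild-type, a change of 0.01 ± 0.07 (95% interval -0.13 to 0.16). The other, 1419415_a_at, ran from 7.07 to 7.25 in R6/2, against 7.16 to 7.41 in wild-type, a change of -0.09 ± 0.06 (95% interval -0.21 to 0.03). Neither passed the test, with limma adjusted p-values of 0.958 and 0.491 in the order given.

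Rxra and Rxrb are the widely expressed RXRs. The brighter Rxra probe set, 1425762_a_at, ran from 8.66 to 8.85 in R6/2, against 8.69 to 8.87 in wild-type, a change of -0.02 ± 0.05 (95% interval -0.12 to 0.09). The other, 1454773_at, had 7.29, 7.09, 7.24 and 7.23 in R6/2 replicates 1 to 4, against 7.36, 7.33, 7.37 and 7.44 in wild-type replicates 1 to 4. Those groups did not overlap, but the change in M.C of -0.16 ± 0.07 was not called (95% interval -0.30 to -0.02, limma adjusted p = 0.245), and in Mith it was -0.06 ± 0.14. Rxrb ran from 9.22 to 9.32 in R6/2, against 9.14 to 9.37 in wild-type, a change of 0.04 ± 0.05 (95% interval -0.07 to 0.14). Of all 9 probe sets Rxrb had the narrowest spread in R6/2, with an SD of 0.03 over 7 arrays.

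Crabp1 ran from 5.33 to 5.71 with a median of 5.43 in R6/2, against 5.29 to 5.53 with a median of 5.39 in wild-type. In Mith all 3 R6/2 arrays, at 5.44, 5.47 and 5.38, lay above the 3 wild-type arrays, at 5.29, 5.34 and 5.31. This was the only member whose Mith arrays did not overlap. Over both cohorts the change was 0.06 ± 0.06 (95% interval -0.06 to 0.18, limma adjusted p = 0.663). The probe set was dim, with 16.1% of probe sets dimmer.

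The cohorts were compared because the Rarb and Rxrg differences were larger in M.C. In M.C 2 of 9 member probe sets were called, both lower, where 2.47% of all probe sets were called and 2.31% were called lower. In 3 of 9, Rarb, Rxrg and the dimmer Rxra probe set, every R6/2 array lay below every wild-type array, as did 6.33% of all probe sets. In Mith limma called 0 of 9 members and 0 of 22626 probe sets, and at an unadjusted p under 0.05 it had 0 of 9 members and 8.87% of all probe sets. One member, Crabp1, was higher in Mith without overlap, as were 6.61% of all probe sets. The test of the difference between cohorts gave -0.53 ± 0.15 for Rarb (unadjusted p = 0.00251, limma adjusted p = 0.324). For Rxrg it gave -0.62 ± 0.20 (unadjusted p = 0.00636, limma adjusted p = 0.355). The interaction was called for 0 of 22626 probe sets, of which 9.78% had an unadjusted p under 0.05. The cohorts' genotype changes are therefore not shown to differ for either gene.

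Between cohorts, M.C minus Mith with genotype as a term, the dimmer Rxra probe set was higher in M.C by 0.27 ± 0.08 (limma adjusted p = 0.0126). The brighter Rxra probe set was at 0.00 ± 0.05, so the probe sets of this gene disagreed. Rarb at 0.16 ± 0.10 and Rxrg at 0.19 ± 0.12 were not called. That makes 1 of 9 members, where 32.3% of all probe sets were called between cohorts.

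The unequal change within each receptor family was tested on the difference of 2 genes' signals on each array, each gene by its brighter probe set. The rule set Rarb and Rxrg apart with earlier results of these data known, so these tests describe the same difference again and are no independent support for it. Rarb minus Rara changed by -0.48 ± 0.15 between R6/2 and wild-type with cohort as a term (exact two-sided permutation within cohorts p = 0.00857, adjusted p = 0.0114). Rarb minus Rarg changed by -0.51 ± 0.15 (exact permutation p = 0.00714, adjusted p = 0.0114). Rxrg minus Rxrb changed by -0.48 ± 0.14 (exact permutation p = 0.00714, adjusted p = 0.0114), and Rxrg minus Rxra by -0.43 ± 0.16 (exact permutation p = 0.0200, adjusted p = 0.0200). The permutations had 1400 arrangements, the p-values were adjusted over these 4 contrasts, and all 4 stayed under 0.05 with each array left out. The dim Rara probe set may not respond to its gene, so the contrast with Rara can hold little beyond the change of Rarb itself, and no contrast shows that a relative did not change.

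Each cohort's values are given side by side, since the difference between cohorts was not tested for these contrasts. In M.C each of the 4 differences was lower on every R6/2 array than on any wild-type array, with changes of -0.73 for Rarb minus Rara, -0.77 for Rarb minus Rarg, -0.72 for Rxrg minus Rxra and -0.72 for Rxrg minus Rxrb. In Mith the groups overlapped in all 4, and the changes were -0.15, -0.15, -0.04 and -0.16 in the same order. These contrasts were not fitted with the Actb covariate, so its part in them was not tested.

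**Figure D3:**
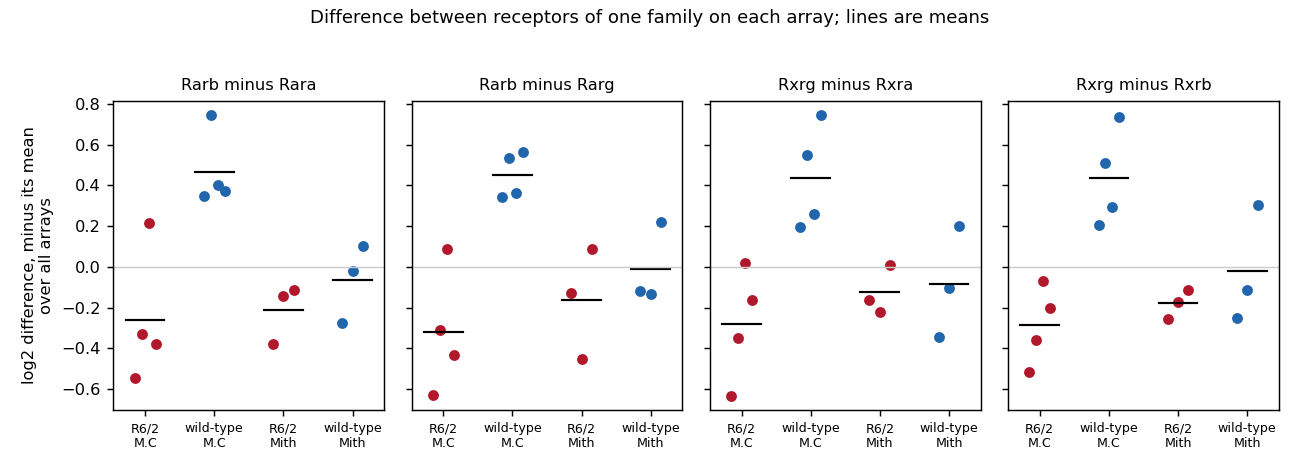
Difference in log2 signal between 2 receptors on each array, minus its mean over all arrays (y axis), for R6/2 (red) and wild-type (blue) in each cohort, with group means as lines. In M.C the red points lie below all blue points in each panel, and in Mith they overlap.

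Across the 14 arrays Rarb and Rxrg kept step. After each cohort's mean was subtracted, Pearson's r was 0.90 and Spearman's rho 0.88 (n = 14), a description in which the genotype difference itself plays a part. After the means of genotype and cohort were both subtracted, Pearson's r was 0.62. Among 12134 other named genes Rxrg ranked 22 by likeness to Rarb, and Rarb ranked 20 by likeness to Rxrg. The other receptors and Crabp1 had r between -0.35 and -0.03 with either gene after cohort means. After genotype and cohort means Rarb had r = -0.69 with Rxra, larger in size than its value with Rxrg, and Rxrg had r = -0.43 with Rarg, while the rest ran from -0.38 to 0.13.

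The 5 genes most like Rarb were Slmap (r = 0.95), a membrane-associated protein of the striatin complex, Strn (r = 0.95), striatin itself, Prkch (r = 0.94), a protein kinase C, Dusp14 (r = 0.94), a phosphatase, and Hsp90b1 (r = 0.94), a chaperone of the endoplasmic reticulum. All 5 were called lower, from -0.76 for Strn to -0.43 for Prkch, where 2.19% of all probe sets were called lower. The ranking keeps the genotype difference, so genes picked by it for likeness to Rarb or Rxrg are lower largely through that choice. Their calls are no independent support. The 5 most like Rxrg were Chn1 (r = 0.96), a Rac GTPase-activating protein, Dusp14 (r = 0.95), Kcnk2 (r = 0.95), a potassium leak channel, Dio2 (r = 0.94), the enzyme that activates thyroid hormone, and Tpm1 (r = 0.94), a tropomyosin. Of these, 4 were called lower and Kcnk2, at -0.35 ± 0.11, was not (limma adjusted p = 0.0961). The call of Dio2, at -0.43 ± 0.10, held in 5 of 14 fits with 1 array left out, that of Hsp90b1, at -0.48 ± 0.11, in 10, and those of Chn1 and Tpm1 in 13 each. Dio2 lost its call without R6/2 replicate 1, 2, 3 or 7 or wild-type replicate 1, 2, 3, 4 or 7, and Hsp90b1 without R6/2 replicate 1 or wild-type replicate 3, 4 or 7. Chn1 lost it without wild-type replicate 4 and Tpm1 without wild-type replicate 3. With the mean of its probe sets Hsp90b1 was not called, at -0.35 (limma adjusted p = 0.0857). Without a cohort term Strn, Prkch, Hsp90b1, Chn1, Dio2 and Tpm1 lost their calls. The values of r are over 14 arrays that share normalization and cohort, and they rank genes only.

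Most markers of striatal projection neurons had lower estimates in R6/2, as did both receptors. Limma called 9 of the 16 measured lower and 0 higher, and the other 7 did not pass, with a median of -0.59, where 2.19% of all probe sets were called lower. Estimates were below 0 for 14 of the 16. The markers Tac1, at 0.07 ± 0.10, and Isl1, at 0.16 ± 0.07, had estimates above 0 (limma adjusted p = 0.787 and 0.293). Penk fell to 54.0% of wild-type, Arpp21, a phosphoprotein regulated by cyclic AMP, to 55.7%, and Ppp1r1b, the dopamine-regulated phosphatase inhibitor, to 57.2%. The Arpp21 value is that of the probe set that stands for the gene. Its other probe sets disagreed, with changes of -1.03 (limma adjusted p = 0.0018) and 0.02 (limma adjusted p = 0.952). The mean of the list, about each gene's own mean, ran from -0.44 to -0.09 on R6/2 arrays, against -0.23 to 0.50 on wild-type arrays. In M.C it ran from -0.44 to -0.12 in R6/2, against 0.36 to 0.50 in wild-type. In Mith it ran from -0.29 to -0.09 in R6/2, against -0.23 to 0.23 in wild-type. Wild-type replicate 5, the lowest wild-type array for Rxrg, was also the lowest wild-type array for this list. In this bulk tissue fewer cells of a type and less RNA per cell cannot be told apart.

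**Figure D4:**
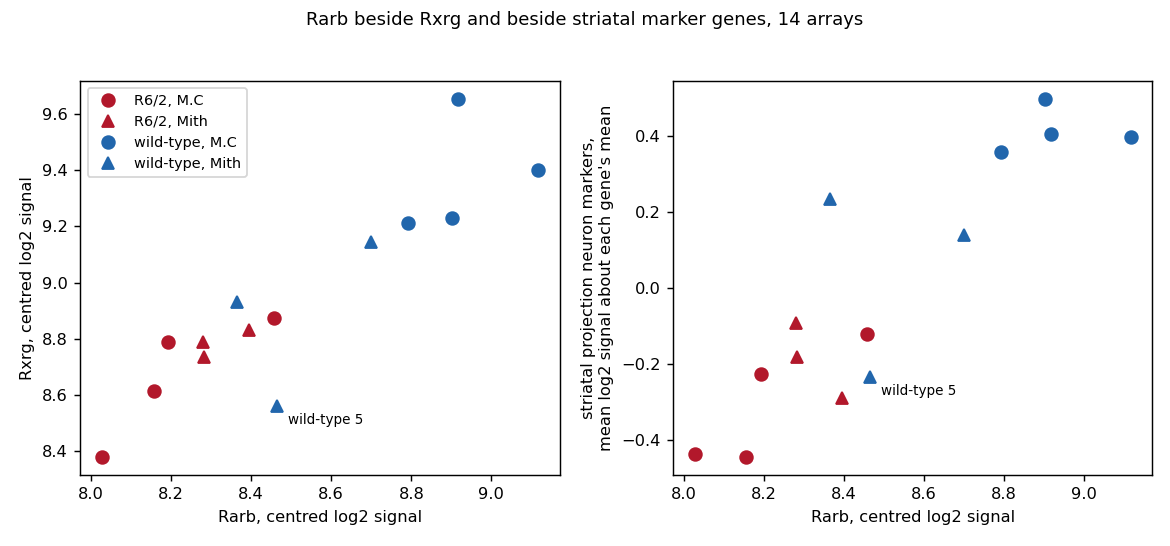
Rarb log2 signal (x axis) against Rxrg log2 signal (left) and against the mean of 16 striatal projection neuron markers about each gene's own mean (right), on 14 arrays. Wild-type M.C arrays lie at the upper right in both panels, and wild-type replicate 5 lies among the R6/2 arrays for Rxrg and for the markers.

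Other tissue and cell markers moved too, and their part in the receptor result was not tested. Of 8 oligodendrocyte genes limma called 5 lower, where 2.19% of all probe sets were called lower, and all 8 had estimates below 0. The median change was -0.32, with list means from -0.62 to 0.39 in R6/2, against -0.35 to 0.65 in wild-type. Ugt8a, an enzyme of myelin lipids, fell by 0.79, Cldn11, a myelin junction protein, by 0.68 and Mobp, a myelin protein, by 0.58. Within each cohort all R6/2 means of this list lay below all wild-type means. In M.C they nearly met, with the highest R6/2 mean at -0.354 and the lowest wild-type mean at -0.348. With the Actb covariate, of the called genes named here only Penk, Ugt8a and Mobp kept their calls. Several changes stayed about as large while the call was lost: Cldn11 was at -0.72, Arpp21 at -0.75, Strn at -0.68, Slmap at -0.52 and Rbp4 at -0.56. Chn1, at -0.32, Hsp90b1, at -0.32, and Dio2, at -0.31, moved further towards 0. Of 5 oligodendrocyte precursor genes 1 was called lower, Olig2, a transcription factor of that lineage, by 0.27, and all 5 had estimates below 0. Their list means ran from -0.23 to 0.03 in R6/2, against 0.01 to 0.19 in wild-type, without overlap within either cohort. The call of Olig2 was lost without R6/2 replicate 1 or wild-type replicate 3 or 4. By the probe set that stands for each gene, none of 8 astrocyte genes was called. Of these genes 4 had an unadjusted p under 0.05, as did 15.2% of all probe sets. Astrocyte list means ran from -0.32 to 0.21 in R6/2, against 0.01 to 0.29 in wild-type. In M.C they did not overlap, at -0.32 to -0.14 in R6/2 against 0.01 to 0.21 in wild-type, and in Mith they did. Other probe sets were called for Gja1, an astrocyte gap junction protein, in 3 of 5, the lowest at -0.73 (limma adjusted p = 0.00339), and for Slc1a3, a glutamate transporter, in 1 of 2, at -0.39 (limma adjusted p = 0.0177).

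Thalamic markers, of bordering tissue, had 0 of 8 called by the probe set that stands for each gene. In limma 3 had an unadjusted p under 0.05, as did 15.2% of all probe sets. Another probe set of Tcf7l2, a thalamic transcription factor, was called at -0.81 (limma adjusted p = 0.00460). Their list means ran from -0.38 to 0.28 in R6/2, against -0.35 to 0.89 in wild-type, where replicates 5 and 7 were at 0.79 and 0.89. The median change of the list was 0.05 in M.C and -0.61 in Mith. In Mith the means ran from -0.16 to 0.275 in R6/2, against 0.275 to 0.89 in wild-type, so the groups met without crossing. Limma called 0 of 5 cortical, 0 of 4 choroid plexus, 0 of 8 meningeal and vascular and 0 of 7 microglial markers. At an unadjusted p under 0.05 these lists had 0, 0, 1 and 1. Choroid plexus means ran from -0.71 to 0.39 in R6/2, against -0.95 to 0.66 in wild-type. Meningeal and vascular means ran from -0.08 to 0.13 in R6/2, against -0.09 to 0.26 in wild-type, and cortical means from -0.06 to 0.11 in R6/2, against -0.16 to 0.07 in wild-type. Microglial means ran from -0.16 to 0.06 in R6/2, against -0.10 to 0.21 in wild-type. In M.C the microglial means did not overlap, at -0.16 to -0.06 in R6/2 against 0.02 to 0.21 in wild-type, and in Mith they did.

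The rest of the retinoid pathway was mostly not called. Over its lists, 3 genes passed, all lower: Rbp4 (1 of 9 in its list), Nr4a1 (1 of 12) and Drd2 (1 of 17). None passed in the other lists, of 19, 1, 14 and 23 genes. Of all probe sets 2.55% were called, and so few calls are not read as a result about the pathway. An unadjusted p under 0.05, counted for each list, was met by 15.2% of all probe sets. Of 19 genes of retinoid synthesis and storage limma called 0, and 2 had an unadjusted p under 0.05. These were Adh5, an alcohol dehydrogenase, at 0.20 ± 0.07 (limma adjusted p = 0.174), and Aldh1a1, a retinaldehyde dehydrogenase that makes retinoic acid, at -0.28 ± 0.12 (limma adjusted p = 0.282). Of the breakdown enzymes 1 was measured, Cyp26a1, at 0.06 ± 0.05 (limma adjusted p = 0.646), and at an unadjusted p under 0.05 it did not pass either.

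Of 9 genes of retinoid binding and uptake 1 was called, where 2.55% of all probe sets were, and 2 had an unadjusted p under 0.05. Rbp4, the carrier of retinol, was lower in R6/2, at 69.2% of wild-type (-0.53 ± 0.14, limma adjusted p = 0.0485). Its log2 signal was 7.02, 6.99, 7.13 and 7.18 in R6/2 replicates 1 to 4, against 8.18, 7.96, 7.65 and 7.80 in wild-type replicates 1 to 4. In Mith it was 7.07, 7.02 and 6.91 in R6/2 replicates 5 to 7, against 7.70, 6.81 and 6.94 in wild-type replicates 5 to 7. The R6/2 arrays lay together in both cohorts, and wild-type replicates 6 and 7 lay with or below them. Choroid plexus also makes Rbp4, and its marker Ttr, the transthyretin carrier, ran from 8.92 to 12.75 in R6/2, against 8.43 to 13.37 in wild-type, and its part in the Rbp4 result was not tested. With each array left out in turn, the change ran from -0.63 to -0.46 and the call was lost in 11 of 14 fits. It was lost on the values as deposited (limma adjusted p = 0.0537) and with trended and robust variances (limma adjusted p = 0.0610). The call held without wild-type replicate 6, wild-type replicate 7 or R6/2 replicate 5. Rlbp1, which binds retinaldehyde in retina, was at 0.16 ± 0.07 (limma adjusted p = 0.264).

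Of 12 receptors that pair with RXR 1 was called, where 2.55% of all probe sets were, and it alone had an unadjusted p under 0.05. Nr4a1, a nuclear receptor induced by neuronal activity, fell to 76.6% of wild-type (-0.38 ± 0.09, limma adjusted p = 0.0315). It had 9.19, 9.39, 9.43 and 9.44 in R6/2 replicates 1 to 4, against 9.83, 9.65, 9.87 and 10.20 in wild-type replicates 1 to 4. In Mith it had 9.44, 9.58 and 9.72 in R6/2, against 9.66, 9.68 and 9.98 in wild-type. With 1 array left out it lost its call in 7 of 14 fits, namely without R6/2 replicate 1, 2, 3 or without wild-type replicate 1, 3, 4 or 7, with changes from -0.43 to -0.32. Vdr, the vitamin D receptor, was at 0.11 ± 0.06 (limma adjusted p = 0.465).

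Limma called 0 of 14 coregulators and 0 of 23 other nuclear receptors, with 1 and 3 at an unadjusted p under 0.05. Ncoa2, a coactivator, was at -0.16 ± 0.06 and Crebbp, a histone acetyltransferase, at 0.08 ± 0.05. Nr2f6, an orphan receptor, was at -0.23 ± 0.07 (limma adjusted p = 0.0849), and Nr3c1, the glucocorticoid receptor, at -0.16 ± 0.07 (limma adjusted p = 0.281). A further probe set of Nr3c1 was called, at -0.34.

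Of 17 genes known to be induced by retinoic acid 3 had an unadjusted p under 0.05 and 1 was called, where 2.55% of all probe sets were called. The median change was -0.01. The called gene was Drd2, the dopamine receptor of indirect-pathway neurons, which is also one of the striatal markers. It fell to 67.7% of wild-type (-0.56 ± 0.11, limma adjusted p = 0.0122). In M.C it had 8.75, 9.11, 9.23 and 9.22 in R6/2 replicates 1 to 4, against 9.96, 9.87, 9.59 and 9.79 in wild-type replicates 1 to 4. In Mith it had 8.90, 8.91 and 8.56 in R6/2, against 8.82, 9.46 and 9.14 in wild-type. Wild-type replicate 5 was again the lowest wild-type array. Without a cohort term in limma Drd2 was not called (adjusted p = 0.168), nor were Rbp4 (adjusted p = 0.248) and Nr4a1 (adjusted p = 0.0963). Meis1, a homeobox factor, was at 0.22 ± 0.07 (limma adjusted p = 0.10).

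**Figure D5:**
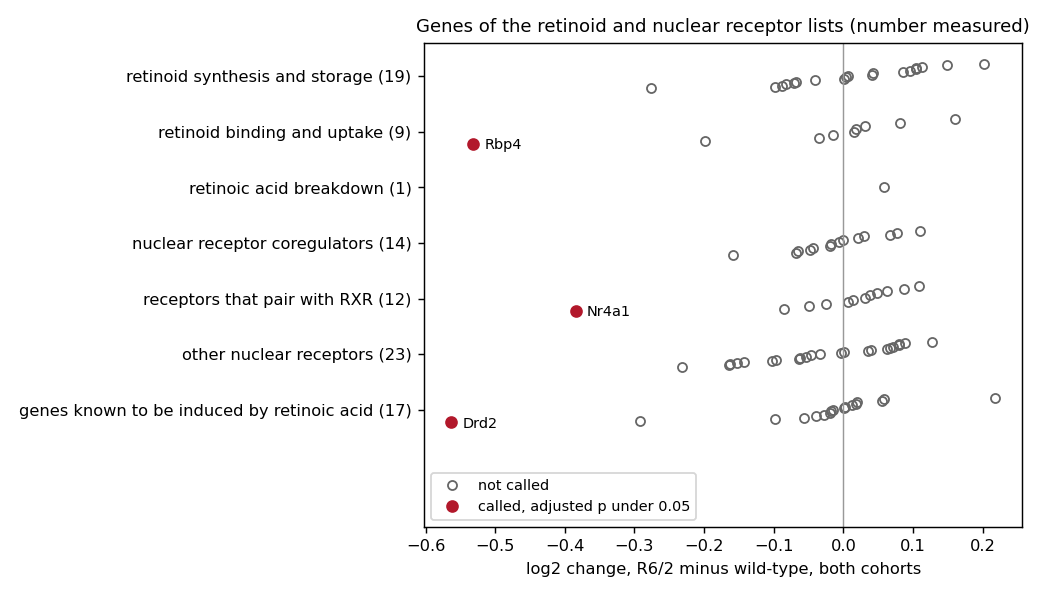
Log2 change, R6/2 minus wild-type over both cohorts (x axis), of each gene measured in the 7 retinoid and nuclear receptor lists, 1 point a gene. Filled points passed an adjusted p under 0.05: Rbp4, Nr4a1 and Drd2, all lower. The other genes spread around 0.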

How the data were processed

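Striatal total RNA of 14 samples was measured on an Affymetrix mouse array, 7 R6/2 and 7 wild-type by the labels' genotype. The authors deposited log2 signals of 22690 probe sets, from 2.96 to 14.5 with 0 missing values. The unit was read from the values. The summary and normalization steps behind them were not stated in the labels or headers, and no raw scans were used, so background and detection were not modelled.

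The 64 control probe sets were left out. Array medians spanned 0.108, over a limit of 0.1, so the arrays were shifted to 1 shared median. Gene symbols are those of the platform annotation, updated by gene ID for 20351 of 20380 probe sets with 1 symbol. Another 691 had several symbols and 1555 had none. Each gene stands by its brightest probe set on average, with cross-hybridising ones passed over where it had another.

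Genotype was tested with limma 3.58.1 in R 4.3.3 with cohort as a term, within each cohort, and as an interaction. On simulated data for the comparison over both cohorts, with 22626 probe sets of which 100 were changed by 0.5 and 100 by 1, 89.0% and 99.0% were recovered, with 6 false calls. The simulation used independent normal residuals, the same change in both cohorts and no difference in RNA quality, so these figures may not hold for the real arrays. Paralogue differences had a two-sided exact test that permuted genotype inside each cohort.

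Named genes were all members, in each pathway list the called genes and the 2 of smallest p, in each marker list up to 3 called genes, and the 5 genes most like Rarb and like Rxrg by Pearson's r after cohort means. The members and lists were chosen with earlier results of these data known. The further probe sets of Nr3c1, Gja1, Slc1a3, Tcf7l2 and Arpp21 were picked after their values were seen. So were the markers Tac1 and Isl1 and the per-array values of Rbp4, Nr4a1 and Drd2. Promoter windows are from RefSeq, GRCm38.p6. Alternatives covered scaling, the cohort term, variances, array weights, a filter on dim probe sets, an Actb covariate, averaging a gene's probe sets, each cohort alone and each array left out.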

Additional observations from a re-analysis of the deposited data

How the results depend on the processing

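Settings are changes to the fit over both cohorts unless a cohort is named, and values are log2 changes, R6/2 minus wild-type. Rarb lost its call with the Actb 3′ minus 5′ covariate at -0.40 (limma adjusted p = 0.222), in Mith alone at -0.19 (adjusted p = 0.635) and without a cohort term at -0.49 (adjusted p = 0.0537). It kept it under the other 7 settings and, from -0.55 to -0.44, with each array left out. Rxrg passed in M.C alone at -0.71 (adjusted p = 0.0120), with array weights at -0.49 (adjusted p = 0.0156) and among brighter probe sets only at -0.45 (adjusted p = 0.0455), and ran from -0.54 to -0.37 with each array left out. The 4 paralogue contrasts stayed under 0.05 with quantile normalization, with the mean of each gene's probe sets and with each array left out.

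The count of all probe sets called, 578, was 56 with the Actb covariate, 0 in Mith alone, 1333 with array weights, 100 without a cohort term and 280 to 879 with each array left out. Of the R6/2 arrays, leaving out replicate 1 gave 295, replicate 3 gave 384 and replicate 7 gave 341. Of the wild-type arrays, leaving out replicate 1 gave 370, replicate 3 gave 280, replicate 4 gave 295, replicate 5 gave 879 and replicate 7 gave 310. In M.C the count, 558, was 371 with quantile normalization and 242 (without R6/2 replicate 1) to 962 (without R6/2 replicate 4), and in Mith, where it was 0, 0 to 13, with 13 without wild-type replicate 5.

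Uncalled values near 0 changed sign. Rara was at 0.0020 in M.C alone, 0.00057 on the values as deposited and -0.050 to 0.021 with each array left out. Rarg 1419416_a_at was at -0.036 in Mith alone, at -0.038 with the mean of its probe sets and at -0.029 to 0.050 with each array left out. Rxra 1425762_a_at was at 0.0087 in M.C alone, 0.028 with quantile normalization, 0.0010 as deposited and -0.034 to 0.0026 with each array left out. Cyp26a1 was at -0.025 and Kcnk2 at 0.00013 in Mith alone. Within M.C, quantile normalization put Rara at -0.027 and Crabp1 at -0.012, and it put the interaction of Rxrb at 0.095. With each M.C array left out Rara ran from -0.033 to 0.077, Crabp1 from -0.057 to 0.069, Rxra 1425762_a_at from -0.019 to 0.042 and Rxrb from -0.0018 to 0.042. With each Mith array left out Rara ran from -0.14 to 0.038, Rarg 1419416_a_at from -0.16 to 0.052, Rxrg from -0.25 to 0.038 and Rxra 1454773_at from -0.19 to 0.073. The cause of these changes was not tested. No paired analysis was possible because the sample titles give the genotypes of a cohort no shared numbers. The replicate numbers used here count arrays within each genotype and mark no pairs. The number of arrays limits the precision, and signal over background was not used here.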
